A study of Homo sapiens with 6 samples.

Results

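The kinesins and the genes of the kinetochore, the spindle checkpoint, condensin and the spindle were taken from the platform's gene table by symbol, which gave 89 of the 14812 genes measured in C4-2 cells. C4-2 is a human prostate cancer cell line derived from LNCaP. The 6 samples were cells treated with NU7441, an inhibitor of the kinase DNA-PKcs, at 1 µM for 24 h, cells in which DNA-PKcs was depleted for 96 h by a pool of siRNAs to its gene, PRKDC (called knockdown), and control cells, which the labels describe as DMSO-treated, with 2 biological replicates in each group. All were grown in hormone-proficient medium, and nothing in the labels ties replicates to separate passages or days. The protocol text names a control siRNA pool but not which samples received it, so effects of transfection and of the longer knockdown schedule cannot be told apart from those of depletion. PRKDC itself is not analysed here, so the labels alone define the knockdown.

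Kinesins are motor proteins that use ATP to move along microtubules or to take them apart. One set builds the spindle, moves chromosomes and completes cytokinesis, and its genes are transcribed mainly late in the cell cycle. Another carries vesicles, organelles and RNA in cells whether or not they divide. Kinetochores join chromosomes to spindle fibres, condensins compact the chromosomes, cohesins hold sister chromatids together, and the checkpoint proteins delay anaphase until every chromosome is attached. The 89 genes comprised 13 mitotic kinesins, 15 transport kinesins, 14 other kinesins (microtubule depolymerases, ciliary motors and regulators of signalling), 16 kinetochore genes, 6 checkpoint genes, 8 genes of the SMC family and DNA topoisomerase, 9 kinases, 3 spindle and midzone genes, and 5 that the symbol rule caught but that fall in none of these lists. The SMC genes stood for condensin through SMC2 and SMC4 only, and no non-SMC condensin subunit is analysed here. Of the 89 genes 86 are protein-coding in the RefSeq gene table.

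Dim probesets read lower on the treated arrays. Over 44629 probesets the median intensity was 24.6 and 26.0 with NU7441, 28.4 and 27.6 after knockdown, and 31.5 and 31.6 in control cells, and no value lay below 16. The median log2 fold change of all genes was −0.23 for NU7441 and −0.09 for knockdown, and each list is read against these values. The median SD between replicates was 0.215 log2 units with NU7441, 0.139 after knockdown and 0.087 in controls. NU7441 replicate 1 lay below replicate 2 for 66 of the 89 genes (74.2%), against 59.8% of all genes. Of the luminal prostate markers 6 of 10 were measured, at 81.8 to 1602 on every array, including KLK3 and HOXB13, whereas the measured basal, stromal, endothelial and leukocyte markers stayed at or below 63.2 on every array.

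The start regions of 8 of the genes are printed first, because most mitotic and few transport kinesins held the letters marked in them. Many genes transcribed late in the cell cycle carry a CHR element (cell cycle genes homology region, read here as TTTGAA or TTCGAA on either strand) close to the start, often with CCAAT boxes upstream. A CHR is bound by the LIN54 subunit of the DREAM and MMB complexes, and CCAAT by the factor NF-Y. Each line runs from 150 bases before to 30 bases after the gene's start on GRCh38.p14, taken from RefSeq, with every CHR or CCAAT match in capitals (a CCAAT on the opposite strand reads ATTGG, and TTTGAA there reads TTCAAA). KIF23, KIF4A, KIF18A, KIF11 and CDC20 are mitotic genes that fell with NU7441, KIF5B is a transport kinesin that fell, and KIF1B and KIF3B are transport kinesins that rose.
KIF23 (chr15:69414199-69414378, plus strand): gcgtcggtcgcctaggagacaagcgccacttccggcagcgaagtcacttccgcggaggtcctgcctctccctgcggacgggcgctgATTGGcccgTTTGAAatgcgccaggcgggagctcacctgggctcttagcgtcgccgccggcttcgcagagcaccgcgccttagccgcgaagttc
KIF4A (chrX:70289954-70290133, plus strand): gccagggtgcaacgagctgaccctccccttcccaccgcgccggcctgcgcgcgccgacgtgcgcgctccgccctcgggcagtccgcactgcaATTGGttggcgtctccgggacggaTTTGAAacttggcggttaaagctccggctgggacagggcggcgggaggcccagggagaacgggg
KIF18A (chr11:28108127-28108306, minus strand): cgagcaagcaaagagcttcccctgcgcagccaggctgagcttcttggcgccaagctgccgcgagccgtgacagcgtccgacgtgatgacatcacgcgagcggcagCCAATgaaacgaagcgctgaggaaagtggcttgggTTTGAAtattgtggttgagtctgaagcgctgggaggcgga
KIF11 (chr10:92592980-92593159, plus strand): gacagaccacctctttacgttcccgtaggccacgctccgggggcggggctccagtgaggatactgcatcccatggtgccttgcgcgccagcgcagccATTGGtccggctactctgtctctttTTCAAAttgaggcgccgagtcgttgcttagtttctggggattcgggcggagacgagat
CDC20 (chr1:43358831-43359010, plus strand): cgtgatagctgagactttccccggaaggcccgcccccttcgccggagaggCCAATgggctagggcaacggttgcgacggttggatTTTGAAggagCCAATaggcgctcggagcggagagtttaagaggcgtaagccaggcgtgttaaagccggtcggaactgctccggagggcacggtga
KIF5B (chr10:32056396-32056575, minus strand): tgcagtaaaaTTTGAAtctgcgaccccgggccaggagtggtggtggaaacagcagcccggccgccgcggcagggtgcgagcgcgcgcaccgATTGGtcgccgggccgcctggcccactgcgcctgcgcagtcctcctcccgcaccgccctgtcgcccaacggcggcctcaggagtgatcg
KIF1B (chr1:10210420-10210599, plus strand): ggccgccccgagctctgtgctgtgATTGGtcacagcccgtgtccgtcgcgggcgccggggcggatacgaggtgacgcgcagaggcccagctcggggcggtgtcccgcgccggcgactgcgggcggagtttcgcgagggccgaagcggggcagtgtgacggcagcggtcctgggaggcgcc
KIF3B (chr20:32277501-32277680, plus strand): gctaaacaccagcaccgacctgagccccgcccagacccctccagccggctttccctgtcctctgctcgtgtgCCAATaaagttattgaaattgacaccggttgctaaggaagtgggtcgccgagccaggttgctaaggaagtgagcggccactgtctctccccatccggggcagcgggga
In KIF23 the CHR match started 55 bases before the gene's start and the CCAAT match upstream of it began 64 bases before the start. In KIF4A, KIF18A and KIF11 the CHR matches began 34, 10 and 28 bases before the start, with the CCAAT match upstream of each at 58, 45 and 53 bases. In CDC20 the CHR match began 65 bases before the start, between CCAAT matches at 100 and 55 bases. KIF5B also held a CHR match, but 140 bases before the start, and the printed regions of KIF1B and KIF3B held a CCAAT match and no CHR match.

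A window of 300 bases, from 250 before to 50 after the start, was given for 72 of the 89 genes and for 10736 genes of the whole table, with the first-listed start used where a gene had several. A CHR match was present in 11 of 13 mitotic kinesin windows (84.6%), in 1 of 11 transport kinesin windows (9.09%) and in 13.2% of all windows. Within the narrower stretch from 50 bases before to 20 bases after the start, a CHR match began in 9 mitotic kinesin windows (69.2%), in 0 transport kinesin windows and in 2.93% of all windows. CCAAT, a shorter and commoner run of letters, was found in 11 mitotic kinesin windows (84.6%), 3 transport kinesin windows (27.3%) and 36.0% of all windows. The transport kinesins printed above were those 3, and KIF5B was the 1 with a CHR match. Every printed mitotic kinesin held both kinds of match, as did 10 of the 13. The printed regions therefore do not stand for their lists. KIF20A and KIF2C were the mitotic kinesins with no CHR match, and KIF20A held 2 CCAAT matches. Among the 10 other kinesins with a window the only one with a CHR match was KIF24, which acts at centrioles. The kinetochore windows held a CHR match in 6 of 13, the checkpoint windows in 4 of 5 and the SMC windows in 4 of 8. The median GC content was 62.0% for mitotic kinesins, 69.7% for transport kinesins and 63.3% for all windows, and its part in these counts was not tested. A match describes letters and not a bound site.

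**Figure D1:**
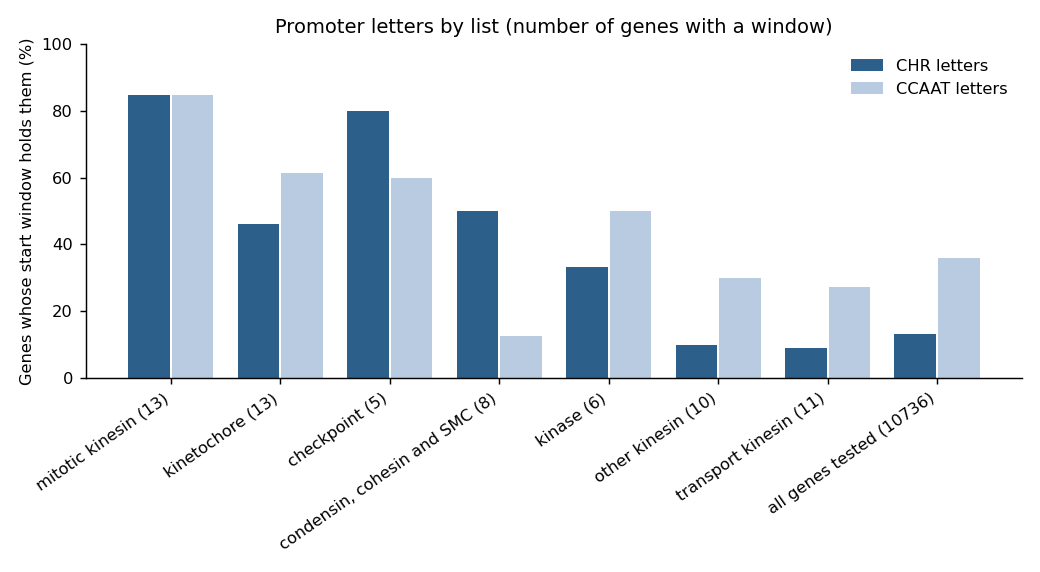
Share of genes (vertical axis, percent) whose 300-base start window holds a CHR or a CCAAT match on either strand, by list, with the number of genes with a window in brackets. CHR matches were found in 84.6% of mitotic kinesin windows, 9.09% of transport kinesin windows and 13.2% of all windows.

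NU7441 against control asked how these genes respond to a day of kinase inhibition. With NU7441, 58 of the 89 genes fell and 5 rose at an adjusted p under 0.05 (limma, moderated test, Benjamini-Hochberg over all 14812 genes). Of all genes 33.2% were called, 22.4% lower and 10.8% higher. The median log2 fold change of the 89 genes was −0.93, against −0.23 for all genes. Both NU7441 arrays lay below both control arrays for 74 of the 89, where 47.3% of all genes did so, and above them for 7, where 22.7% of all genes did so. The count moved with the control arrays. Without control replicate 1 it was 33 lower and 2 higher, and without control replicate 2 it was 32 and 1. In these fits 4.4% and 3.51% of all genes were called lower, and 2.70% and 2.35% higher. With median centring, which turned the split of all calls to 1413 lower and 2983 higher genes against 3312 and 1605, 44 of the 89 were lower and 7 higher. Of the 58 lower calls 30 were made under all 14 alternative settings, and none of the 5 higher calls was. In bulk RNA, fewer cells in mitosis and less of these transcripts per cell cannot be told apart.

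All 13 kinesins of the mitotic list fell with NU7441, by 1.63-fold to 5.31-fold. KIF2A and KIF2B, of the same family as KIF2C, were placed among the other kinesins and are not in that list. KIF20A, a motor of the central spindle needed for cytokinesis, had intensities of 28.2 and 40.5 with NU7441, 129 and 77.5 after knockdown, and 170 and 190 in controls. The NU7441 arrays lay far below the other 4, and the knockdown arrays lay between, without overlap. Its log2 fold change with NU7441 was −2.41 ± 0.29 (SE, n = 2 per group, limma adjusted p = 0.000984). KIF15, a spindle motor that can take over from KIF11, had 26.8 and 43.4 with NU7441, 112 and 121 after knockdown, and 174 and 158 in controls (−2.28 ± 0.26, limma adjusted p = 0.000772). KIF20B, another cytokinesis motor, had 42.8 and 43.6 with NU7441, 153 and 126 after knockdown, and 192 and 213 in controls (−2.23 ± 0.20, limma adjusted p = 0.000404). In these 3 genes no NU7441 array came near a control array.

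KIF11, the motor that pushes spindle poles apart, had a log2 fold change of −1.86 ± 0.28 with NU7441, KIF23, the motor subunit of centralspindlin, one of −1.99 ± 0.22, and KIF14, a motor of the midbody, one of −1.82 ± 0.23. The least changed of the list were KIF22, KIF2C and KIF18B. KIF22, a chromosome-arm motor, had 123 and 146 with NU7441, 242 and 262 after knockdown, and 270 and 339 in controls (−1.17 ± 0.18, limma adjusted p = 0.00217). KIF2C, which removes tubulin from microtubule ends at centromeres, had 110 and 106 with NU7441, 178 and 170 after knockdown, and 238 and 176 in controls (−0.93 ± 0.19, limma adjusted p = 0.008). Its call was lost without control replicate 1 (−0.71, limma adjusted p = 0.121). KIF18B, which shortens astral microtubules, had 78.9 and 54.8 with NU7441, 100.6 and 111 after knockdown, and 106 and 108 in controls (−0.71 ± 0.23, limma adjusted p = 0.0425). KIF18B kept its call in 5 of the 14 alternative settings and lost it among others with quantile normalization, with median centring and without either control replicate.

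KIF4A and KIF4B are closely related chromokinesins, so their probes may read both transcripts. Their log2 fold changes were −1.72 ± 0.19 and −1.40 ± 0.24, and KIF4B lost its call without either control replicate. KIF18A, which caps microtubule growth at kinetochores (−1.53 ± 0.22), lost it without control replicate 2. KIFC1, a minus-end motor that focuses spindle poles, had 4 probesets. For 3 of them the intensities on each array were nearly the same, and their log2 fold changes were −1.56 to −1.60. The fourth was dim, at 16.01 and 18.4 with NU7441 and 22.7 and 19.7 in controls.

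Transport kinesins went both ways with NU7441. Of 15 genes 5 fell, 3 rose and 7 did not pass, a split to be read against the 22.4% lower and 10.8% higher among all genes. KIF1B, a carrier of mitochondria and synaptic vesicle precursors, had 452 and 417 with NU7441, 283 and 279 after knockdown, and 216 and 212 in controls. All 3 groups were apart, with NU7441 highest. Its log2 fold change was 1.02 ± 0.13 (limma adjusted p = 0.00131), but a second, dimmer KIF1B probeset stood at −0.02, and with the mean of both the call was lost (0.50, limma adjusted p = 0.108). KIF13B, which carries membrane receptors, had 124 and 99.2 with NU7441, 78.3 and 77.5 after knockdown, and 58.2 and 51.9 in controls (1.01 ± 0.22, limma adjusted p = 0.00943).

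The subunits of kinesin-2, which drives transport inside cilia and of melanosomes and other cargo, went in opposite directions. KIF3B had 371 and 317 with NU7441, 226 and 177 after knockdown, and 193 and 168 in controls (0.93 ± 0.18, limma adjusted p = 0.00571). Its partner KIF3A had 35.5 and 46.4 with NU7441, 66.3 and 59.5 after knockdown, and 92.7 and 93.1 in controls (−1.20 ± 0.24, limma adjusted p = 0.00652). The NU7441 arrays thus lay above all control arrays for one motor subunit and below them for the other. KIFAP3, the non-motor subunit, named after its value was seen, stood at 0.32 ± 0.27 (limma adjusted p = 0.391). KIF3C, which can pair with KIF3A in the place of KIF3B, was at 0.36 ± 0.27 (limma adjusted p = 0.315). The call of KIF3A was lost without either control replicate and that of KIF3B without control replicate 2.

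KIF1C, a carrier of vesicles and integrins, had 29.5 and 49.3 with NU7441, 70.9 and 66.9 after knockdown, and 88.1 and 86.8 in controls (−1.20 ± 0.28, limma adjusted p = 0.0119). KIFC2, a minus-end motor described in neurons, had 32.2 and 24.2 with NU7441, 41.2 and 39.95 after knockdown, and 56.8 and 57.2 in controls (−1.03 ± 0.24, limma adjusted p = 0.0131). The NU7441 arrays were the lowest pair in both genes. KIF5B, the ubiquitous conventional kinesin, also fell (−0.93 ± 0.25), as did KIFC3 (−0.63 ± 0.17), whose NU7441 intensities of 17.2 and 17.9 were close to the lowest value on the arrays. Without either control replicate none of these 5 falls passed, and the 3 that rose were reduced to 2 without control replicate 1 and to 1 without control replicate 2. The 7 transport kinesins that did not pass lay between −0.64 (KIF5C) and 0.36 (KIF3C) on the log2 scale. KIF5C, a conventional kinesin of neurons shown after its values were seen, had 23.0 and 75.3 with NU7441, 59.1 and 41.2 after knockdown, and 68.1 and 62.0 in controls, so that its NU7441 arrays lay on either side of the controls.

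Set side by side, the median log2 fold change with NU7441 was −1.72 for mitotic kinesins and −0.51 for transport kinesins, a difference of −1.21, beside −0.23 for all genes. On the single NU7441 arrays the median relative to the control mean was −1.79 and −1.59 for mitotic kinesins, and −0.60 and −0.11 for transport kinesins. Over the alternative settings the difference ranged from −1.47 to −1.13. Of the 13 mitotic falls 9 held under all 14 alternatives, against 0 of the 8 calls among transport kinesins. None of the 13 mitotic kinesins and 5 of the 15 transport kinesins had a mean over the 6 arrays below the median gene. If the floor of 16 is an added offset, fold changes are understated where intensities are low. Mitotic kinesins with low NU7441 intensities are affected as well, such as KIF20A (28.2 and 40.5) and KIF15 (26.8 and 43.4). With 16 taken off, KIF20A moved from −2.41 to −3.24 and KIF15 from −2.28 to −3.12, and the difference between the lists was −1.13.

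**Figure D2:**
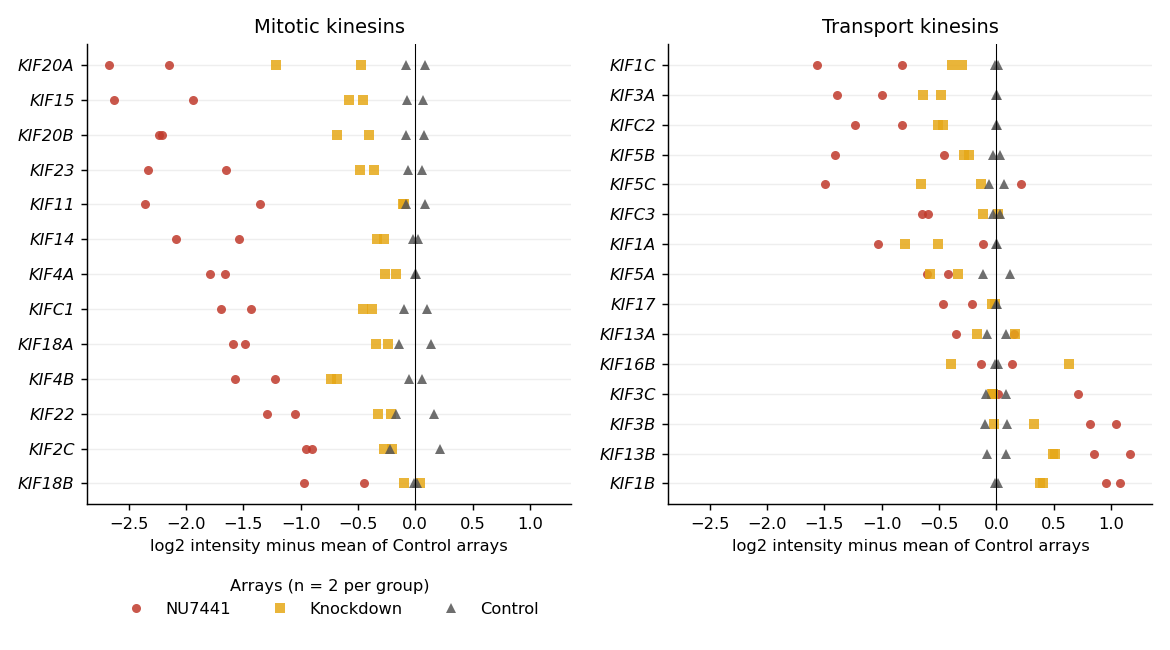
Log2 intensity minus the mean of the control arrays (horizontal axis) for each of the 6 arrays, with 1 row per gene, for 13 mitotic and 15 transport kinesins ordered by the response to NU7441. NU7441 arrays lie left of all control arrays in every mitotic row, and on both sides of them among transport kinesins, from KIF1C at −1.20 to KIF1B at 1.02.

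Among the 14 other kinesins 6 fell, 1 rose and 7 did not pass, with a median of −0.51. KIF19, which trims ciliary microtubules in mice, had 18.9 and 18.1 with NU7441, 29.3 and 27.8 after knockdown, and 53.2 and 37.5 in controls (−1.27 ± 0.23, limma adjusted p = 0.00471). KIF24 had 32.004 and 47.6 with NU7441, 78.0 and 83.5 after knockdown, and 94.8 and 72.8 in controls (−1.09 ± 0.27, limma adjusted p = 0.0149). KIF7, a regulator of Hedgehog signalling at the ciliary tip, had 38.6 and 35.1 with NU7441, 84.7 and 66.0 after knockdown, and 73.8 and 80.0 in controls (−1.06 ± 0.24, limma adjusted p = 0.0105). The knockdown arrays of KIF24 and KIF7 overlapped the controls, and those of KIF19 did not. KIF9, a motor of motile cilia, was the 1 that rose, with 199.5 and 216 under NU7441, 172 and 206 after knockdown, and 117 and 113 in controls (0.85 ± 0.17, limma adjusted p = 0.00752). Its calls, like those of KIF24 and KIF7, were lost without either control replicate, and that of KIF19 without control replicate 1. KIF9-AS1, the antisense transcript at the same locus, fell (−0.94 ± 0.22, call lost with median centring and without either control replicate), and reads of overlapping transcripts on opposite strands may not be fully apart on the array. KIF2A, a depolymerase with roles in neurons and at spindle poles, fell (−0.87 ± 0.17), as did KIF26A (−0.78 ± 0.25) and KIF21A (−0.52 ± 0.15). The calls of KIF2A, KIF26A and KIF21A were also lost without either control replicate. KIF21A kept its call in 7 of 14 alternative settings. KIF26A, with dim NU7441 intensities of 17.7 and 25.1, kept it in 4 of 13, losing it also with quantile normalization and with median centring. The 7 that did not pass lay between −0.88 (KIF27) and 0.45 (KIF26B).

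Of the 16 kinetochore genes 14 fell with NU7441, 0 rose and 2 did not pass, with a median of −1.18. Without control replicate 1 the count was 7 and without control replicate 2 it was 5. CENPH, of the inner kinetochore, had 31.9 and 88.7 with NU7441, 163 and 123 after knockdown, and 244 and 279 in controls (−2.30 ± 0.40, limma adjusted p = 0.00378). CENPW, a histone-fold protein of the inner kinetochore, had 52.7 and 296 with NU7441, 471 and 454 after knockdown, and 475 and 570 in controls (−2.06 ± 0.59, limma adjusted p = 0.0262). The 2 NU7441 arrays of CENPW differed far more than those of most genes, and its call was lost without either control replicate and in 5 further settings. NDC80, the outer kinetochore protein that grips the microtubule, had 90.1 and 91.5 with NU7441, 273 and 271 after knockdown, and 368 and 338 in controls (−1.96 ± 0.15, limma adjusted p = 0.000243). Its NU7441 arrays agreed closely and lay well below the rest.

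CENPA, the histone variant that marks centromeres, fell (−1.51 ± 0.20), and its loading factors outside the symbol rule included OIP5 (−2.33 ± 0.25) and MIS18A (−0.57 ± 0.15), which also fell. CENPK (−1.63 ± 0.22), CENPQ (−1.49 ± 0.28), CENPI (−1.39 ± 0.28), CENPM (−1.29 ± 0.15) and CENPU (−1.06 ± 0.18) belong to the inner kinetochore and fell. The calls of CENPQ and CENPU were lost without control replicate 2 and that of CENPI without either control replicate. CENPO (−1.03 ± 0.21), CENPP (−0.89 ± 0.22), CENPX (−0.71 ± 0.19), CENPN (−0.49 ± 0.11) and CENPC (−0.80 ± 0.23), the protein on which the inner kinetochore is built, also fell, each losing its call without either control replicate. With median centring CENPP, CENPX, CENPN and CENPC lost it as well. CENPC kept its call in 7 of 14 alternative settings and lost it also with quantile normalization. CENPT, a DNA-binding link to the outer kinetochore, was at −0.41 ± 0.22 (limma adjusted p = 0.177). CENPL had 86.6 and 76.5 with NU7441, 120 and 119 after knockdown, and 104 and 97.1 in controls (−0.31 ± 0.20, limma adjusted p = 0.249). CENPN and CENPL form a complex that binds CENPA nucleosomes. For both the knockdown arrays were above the controls, with log2 fold changes after knockdown of 0.17 ± 0.11 and 0.25 ± 0.20 that did not pass. The same was seen for CENPT (0.38 ± 0.22), which did not pass either. These were 3 of the 16 kinetochore genes, where 23.4% of all genes had both knockdown arrays above both control arrays.

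All 6 checkpoint genes fell. MAD2L1, which holds the anaphase-promoting complex inactive, had 23.1 and 73.8 with NU7441, 244 and 202 after knockdown, and 336 and 339 in controls (−3.03 ± 0.43, limma adjusted p = 0.00169). It had the lowest log2 fold change of the 89 genes, with its NU7441 arrays far apart. BUB1, a checkpoint kinase, had 52.1 and 52.4 with NU7441, 145 and 141 after knockdown, and 177 and 170 in controls (−1.73 ± 0.19, limma adjusted p = 0.00064). CDC20, the activator that MAD2L1 restrains, had 102 and 193 with NU7441, 414 and 442 after knockdown, and 446 and 471 in controls (−1.71 ± 0.25, limma adjusted p = 0.00197). BUB1B (−1.67 ± 0.19) and BUB3 (−1.01 ± 0.12), partners in binding unattached kinetochores, fell as well. MAD2L1BP, which dismantles the checkpoint complex, had 83.6 and 80.9 with NU7441, 86.5 and 104 after knockdown, and 126 and 140 in controls (−0.69 ± 0.20, limma adjusted p = 0.0286), and lost its call with quantile normalization, with median centring and without either control replicate. MAD2L2, a paralogue that works in DNA repair, did not pass (−0.30 ± 0.26, limma adjusted p = 0.382).

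Of the 9 kinases 5 fell, 1 rose and 3 did not pass. AURKA (−1.90 ± 0.23), AURKB, PLK1 (−1.43 ± 0.14), PLK4 and PBK, which act in mitosis or centriole copying, fell. PLK2 and PLK3, known as stress-responsive relatives of PLK1, and AURKC, best known from meiosis, did not pass. AURKC (−0.65 ± 0.30) and PLK3 (−0.41 ± 0.32) were dim, and their NU7441 arrays lay below both control arrays. Those of PLK2 (0.37 ± 0.20) lay above. PBK, a mitotic kinase, had 51.5 and 107 with NU7441, 407 and 355 after knockdown, and 478 and 510 in controls (−2.73 ± 0.28, limma adjusted p = 0.00061). AURKB, the kinase of the chromosomal passenger complex, had 67.8 and 95.8 with NU7441, 258 and 259 after knockdown, and 357 and 405 in controls (−2.24 ± 0.19, limma adjusted p = 0.000339). PLK4, the kinase that starts centriole copying, had 21.3 and 31.9 with NU7441, 56.4 and 53.1 after knockdown, and 100.1 and 96.1 in controls (−1.91 ± 0.26, limma adjusted p = 0.00153). In all 3 the knockdown arrays lay between the NU7441 and control arrays. PLK5, a relative without a working kinase domain in humans, was the only kinase of the list called higher, with 90.5 and 57.4 under NU7441, 62.3 and 45.8 after knockdown, and 41.8 and 36.4 in controls (0.89 ± 0.29, limma adjusted p = 0.043), and kept this call in 7 of 14 alternative settings, losing it without NU7441 replicate 1, without either control or knockdown replicate and in 2 others.

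**Figure D3:**
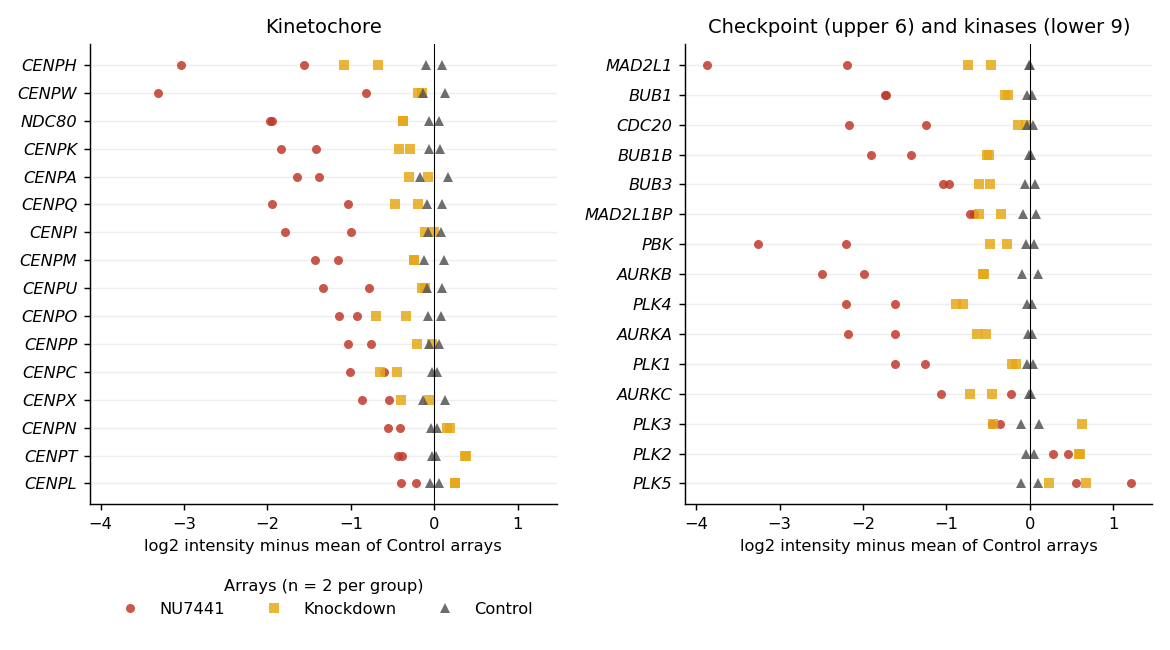
Log2 intensity minus the mean of the control arrays (horizontal axis) on each of the 6 arrays for 16 kinetochore genes (left) and for 6 checkpoint genes above 9 kinases (right), ordered by the response to NU7441 within each list. Both NU7441 arrays lie below both control arrays for all 16 kinetochore and all 6 checkpoint genes, and 2 kinases, PLK2 and PLK5, lie above them.

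BIRC5, the survivin subunit of the passenger complex, had 187 and 154 with NU7441, 263 and 242 after knockdown, and 284 and 270 in controls (−0.70 ± 0.16, limma adjusted p = 0.0115), and its call was lost with median centring and without either control replicate. CDCA8 (−1.72 ± 0.20) and INCENP (−1.11 ± 0.27), the other subunits beside AURKB, fell too, and were named after their values were seen. NUSAP1, which bundles spindle microtubules near chromosomes, had 87.0 and 142 with NU7441, 267 and 223 after knockdown, and 508 and 490 in controls (−2.17 ± 0.22, limma adjusted p = 0.00061). PRC1, the crosslinker of the central spindle that KIF4A works with, had 166 and 216 with NU7441, 431 and 363 after knockdown, and 434 and 432 in controls (−1.19 ± 0.16, limma adjusted p = 0.00152). For all 3 genes the NU7441 arrays were lowest, and the knockdown arrays of NUSAP1 stood about midway on the log scale.

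Of the 8 SMC family and topoisomerase genes 5 fell and 3 did not pass. SMC2, a core ATPase of condensin, had 46.6 and 84.2 with NU7441, 276 and 185 after knockdown, and 452 and 522 in controls (−2.96 ± 0.29, limma adjusted p = 0.00047). SMC4, its partner in every condensin, had 376 and 415 with NU7441, 891 and 909 after knockdown, and 1145 and 1183 in controls (−1.56 ± 0.10, limma adjusted p = 9.47e-05). TOP2A, the topoisomerase that untangles chromosomes, had 88.7 and 175 with NU7441, 407 and 406 after knockdown, and 585 and 606 in controls (−2.26 ± 0.26, limma adjusted p = 0.000868). Each of the 3 had all knockdown arrays between the NU7441 and control arrays.

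The cohesin ATPases SMC1A and SMC3 also fell. SMC3 had 355 and 358 with NU7441, 423 and 361 after knockdown, and 653 and 632 in controls (−0.85 ± 0.12, limma adjusted p = 0.00191). Both treatments put SMC3 below the controls, at similar levels. SMC1A fell (−0.63 ± 0.14, limma adjusted p = 0.0111), and lost its call with median centring and without either control replicate. SMC5 and SMC6, which pair in DNA repair, stood at −0.41 ± 0.16 and −0.62 ± 0.24, with limma adjusted p of 0.0767 and 0.0702. SMC1B, the meiotic cohesin subunit, was dim on all arrays, with 20.7 and 24.2 under NU7441, 25.3 and 36.0 after knockdown, and 25.5 and 28.6 in controls. Of other cohesin genes RAD21 (−0.73 ± 0.13) and STAG2 (−0.93 ± 0.31, limma adjusted p = 0.0426) fell, among others, and the loader NIPBL rose (0.66 ± 0.17). The NU7441 arrays of STAG2 were far apart, at 66.2 and 140, against 193 and 174 in controls. RAD21 and STAG2 were named after their values were seen.

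**Figure D4:**
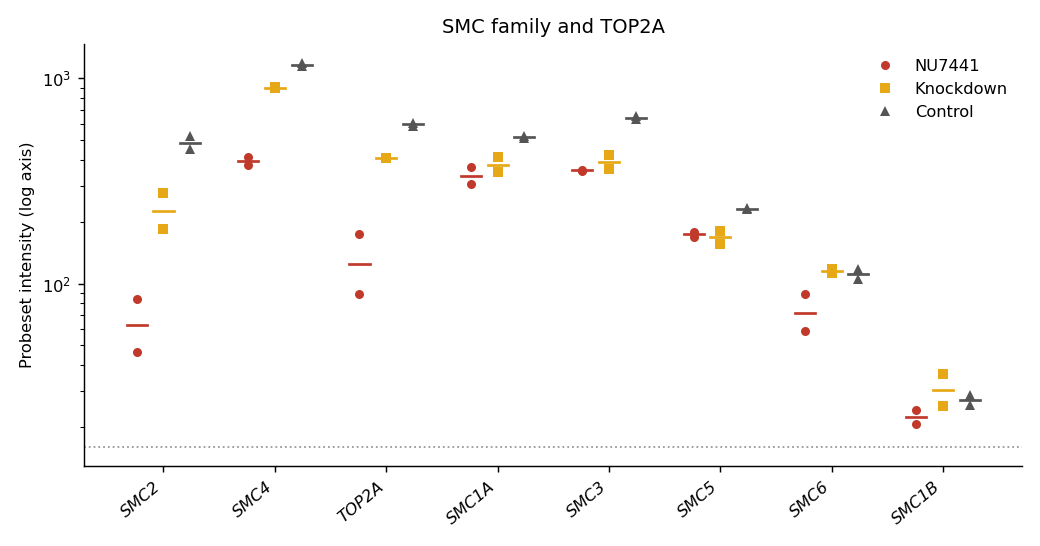
Probeset intensity (vertical log axis) of 7 SMC genes and TOP2A on each array, with NU7441, knockdown and control side by side within each gene, bars at the mean of log2 values and the dotted line at 16. Levels can be compared within a gene only; SMC2 averaged 62.7, 226 and 486 in the 3 groups, and SMC3 356, 391 and 642.

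The genes of the same processes that the symbol rule did not catch were counted with NU7441 as well. Of all genes 22.4% were called lower and 10.8% higher. Of 30 kinetochore, spindle and cohesion partners 29 fell and 1 rose, with a median of −1.45 and ESCO2 (−2.22 ± 0.22), a cohesin acetyltransferase, and SGO1 (−2.10 ± 0.19), a protector of centromeric cohesion, among the lowest. Of 17 G2/M regulators 15 fell and 0 rose, with a median of −1.35. NEK2 (−2.29 ± 0.29), FBXO5 (−2.04 ± 0.25) and TTK (−2.01 ± 0.31), which act in centrosome separation, inhibition of the anaphase-promoting complex and the checkpoint, were the lowest, while PTTG1, the securin (−0.79 ± 0.29, limma adjusted p = 0.0605), and UBE2S (0.17 ± 0.17, limma adjusted p = 0.45) did not pass. Of 13 partners of transport motors 3 fell, 5 rose and 5 did not pass, with a median of 0.23, a split to be read against those shares of all genes. DCTN1 (1.10 ± 0.22) and DCTN3 (0.74 ± 0.12), subunits of dynactin, the partner of dynein, rose. DCTN2 (−1.19 ± 0.39, limma adjusted p = 0.0414) and DCTN6 (−0.84 ± 0.18) of the same complex fell. The NU7441 arrays of DCTN2 were far apart, at 28.0 and 72.3, against 104 and 102 in controls. KLC2, a kinesin light chain, also fell (−1.39 ± 0.19). KLC1, another light chain, rose (0.67 ± 0.18), as did DCTN4 of dynactin (0.68 ± 0.14), while KLC3, KLC4 and DCTN5 did not pass. KLC1, KLC3, KLC4, DCTN4 and DCTN5 were named after their values were seen. Without control replicate 1 the lower and higher counts were 19 and 0 of 30 partners, 11 and 0 of 17 regulators, and 1 and 3 of 13 transport partners. Without control replicate 2 they were 16 and 0, 11 and 0, and 1 and 2.

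**Figure D5:**
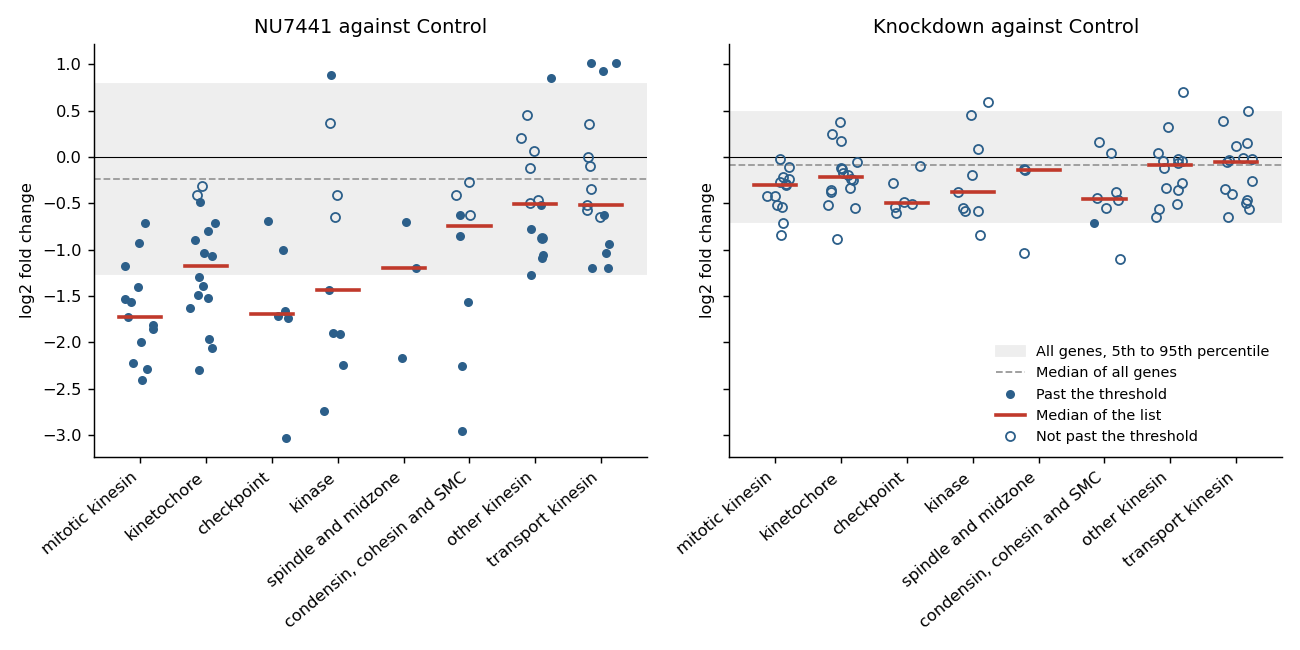
Log2 fold change (vertical axis) of each gene by list for NU7441 against control (left) and knockdown against control (right). Filled points passed the threshold, red bars are list medians, the dashed line is the median of all genes and the grey band their 5th to 95th percentile; the mitotic kinesin median is −1.72 on the left and −0.31 on the right. Both panels use the same 2 control arrays.

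Knockdown against control asked what loss of the protein does to the same genes. Only SMC3 passed, with the intensities given above and a log2 fold change of −0.72 ± 0.12 (n = 2 per group, limma adjusted p = 0.0437). Of all genes 0.77% were called, 0.486% lower and 0.284% higher. Over its alternatives the adjusted p of SMC3 ranged from 0.00035 to 0.435, and its call was lost in 8 of 14, among them without either control or knockdown replicate. With median centring SMC3 was not called and KIF9 was called higher. At an unadjusted p under 0.05, 23 of the 89 genes were lower and 4 higher, while 12.9% and 6.68% of all genes were. Both knockdown arrays lay below both control arrays for 56 of the 89 genes and above them for 9, where 38.2% and 23.4% of all genes did so.

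The count in knockdown cells depended on whether the NU7441 arrays, which varied most, shared the estimate of the spread. With the knockdown and control arrays alone, 29 of the 89 genes were lower and 3 higher, while 19.2% of all genes were called, 12.3% lower and 6.89% higher. Without NU7441 replicate 1 or 2 the counts were 30 lower and 4 higher each, while 12.3% and 12.1% of all genes were called lower, and 7.14% and 7.16% higher. In that fit of knockdown and control alone, 6 of 13 mitotic kinesins were lower, and of the 15 transport kinesins 2 were lower and 1 higher. The median log2 fold change was −0.31 for mitotic kinesins and −0.05 for transport kinesins, beside −0.09 for all genes. The difference of −0.26 between the lists ranged from −0.40 to −0.06 over the alternatives, the smallest being without knockdown replicate 1.

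Of the genes that did not pass in the fit over all 6 arrays, SMC2 stood at −1.10 ± 0.29 (limma adjusted p = 0.0912) and NUSAP1 at −1.03 ± 0.22 (limma adjusted p = 0.0682), the lowest of the 89. CENPH was at −0.88 ± 0.40, PLK4 at −0.84 ± 0.26 and KIF20A at −0.84 ± 0.29, none past the threshold. At the other end KIF9 was at 0.71 ± 0.17 (limma adjusted p = 0.0832). KIF11 and KIF18B, at −0.10 ± 0.28 and −0.02 ± 0.23, had knockdown arrays within or next to the range of the controls. Of the 30 partners and 17 G2/M regulators outside the rule 0 passed, with 13 and 7 lower at an unadjusted p under 0.05 in the limma fit, where 12.9% of all genes were. Of the transport partners 1 of 13 fell, MYO6, a minus-end myosin (−0.70 ± 0.08, limma adjusted p = 0.0119), named after its value was seen. With NU7441 MYO6 was higher than in controls (0.49 ± 0.08, limma adjusted p = 0.00265).

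Knockdown against NU7441 tested the difference between the treatments, which also differ in duration and delivery. In knockdown cells 35 of the 89 genes were higher than with NU7441 and 2 were lower, where 8.67% of all genes were called, 5.83% higher and 2.84% lower. Of the 13 mitotic kinesins 10 were higher after knockdown, led by KIF15, with 112 and 121 after knockdown against 26.8 and 43.4 with NU7441 (1.77 ± 0.26, limma adjusted p = 0.00651). The other 3, KIF4B, KIF2C and KIF18B, differed by 0.68 to 0.69 and did not pass. Both knockdown arrays lay above both NU7441 arrays for all 13, as they did for 32.9% of all genes, and below them for 4 of the 89, as for 19.6% of all genes.

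The 2 lower genes were the transport kinesins KIF3B, with 226 and 177 after knockdown against 371 and 317 with NU7441 (−0.78 ± 0.18, limma adjusted p = 0.031), and KIF1B, with 283 and 279 against 452 and 417 (−0.63 ± 0.13, limma adjusted p = 0.0246). No other transport kinesin passed, and KIF1B did not with the mean of its probesets (−0.05, limma adjusted p = 0.907). Neither of the 2 passed without either control or knockdown replicate. MAD2L1 (2.43 ± 0.43), PBK (2.36 ± 0.28) and SMC2 (1.85 ± 0.29) were higher after knockdown by the largest log2 differences among the 35. SMC3 and SMC1A, the cohesin ATPases, differed between the treatments by 0.13 ± 0.12 and 0.18 ± 0.14, with limma adjusted p of 0.513 and 0.436. Of the kinetochore genes 8 of 16 and of the checkpoint genes 5 of 6 were higher after knockdown. Without knockdown replicate 1 or 2, 0 of the 89 genes passed in limma's test, with 42 and 45 higher and 2 lower each at an unadjusted p under 0.05. Of all genes 12.2% and 13.8% were higher and 6.00% and 6.69% lower at that p in these fits. Without NU7441 replicate 2 the counts were 52 higher and 5 lower, with 23.1% of all genes called higher and 11.4% lower.

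Beside KIF9-AS1 and MAD2L2, 3 genes belonged to no list. CENPV, whose protein has been found at centromeres and the midzone, was not placed in the list of spindle and midzone genes when the lists were drawn up, so that list's 3 of 3 falls leave it out. It had a log2 fold change of 0.07 ± 0.27 with NU7441, and the pseudogene CENPBD2P one of −0.14 ± 0.28. SMC5-DT, a divergent transcript beside SMC5, stood at −0.33 ± 0.24. None of these 3 passed in any of the comparisons.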

How the data were processed

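RNA of 6 C4-2 samples was amplified to cDNA and biotin-labelled, per the labels' protocols, for Affymetrix Human Gene 2.0 ST arrays. The authors deposited linear intensities per probeset; how probes were summarised and normalized is not given in the sources used here, and the p-values measure the spread between samples that the labels call biological replicates. Values were log2 transformed with no further scaling, where the design had assumed values that might be on either scale. Of 44629 probesets 15835 had 1 symbol in the platform table, 0 had several and 28794 are unnamed here. The brightest probeset by mean log2 value stood for each gene, giving 14812. Group differences came from limma 3.58.1 (R 4.3.3), fitted once to the 6 arrays with 3 residual degrees of freedom, with a mean-variance trend, two-sided, Benjamini-Hochberg adjustment over all genes and a threshold of 0.05. Values after ± are moderated standard errors. The procedure was tested on simulated data in which all groups had the same spread for a gene. Unequal spreads, as seen between these groups, were not part of that simulation. Precision is limited by 2 arrays a group.

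Genes given on every array were the 3 lowest and the highest of each list with NU7441, kinesins past the threshold among the 3 highest or lowest of their list, and any gene past it after knockdown, with KIF5C added after its values were seen; every gene of the symbol rule could be named, and outside it the 3 lowest and 2 highest of each list. The genes and lists were chosen with earlier results of these data known. Start windows came from RefSeq on GRCh38.p14 and were matched by gene identifier. Protein sequences were not used here. The closing section gives 14 alternatives.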

Additional observations from a re-analysis of the deposited data

How the results depend on the processing

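With 2 arrays a group, calls rest on the shared spread. Among the 63 of 89 genes called with NU7441, none changed sign under the 14 alternatives, and 30 kept the call in all of them. The NU7441 count was 33 to 72 over the fits leaving out 1 array, and 51 with median centring and 59 with quantile normalization, where the median of all genes was 0.08 and 0.01, against −0.23 as reported. The knockdown count of 1 became 2 with quantile normalization, 0 with 16 taken off, 0 without the mean-variance trend, 0 with the replicate block and 32 with the compared groups alone, and ranged from 0 to 34 leaving out 1 array. The knockdown against NU7441 count of 37 ranged from 0 to 57 leaving out 1 array. Of mitotic kinesins 10 to 13 were called lower with NU7441 leaving out 1 array and 12 to 13 under the other settings. The transport kinesin count of 8 was 5 with median centring and 1 to 11 leaving out 1 array. The difference of mitotic and transport kinesin medians with NU7441, −1.21, was −1.41 with quantile normalization, −1.13 with 16 taken off and −1.47 to −1.15 leaving out 1 array. After knockdown it was −0.26, and became −0.40 with quantile normalization, −0.16 without dim genes and −0.31 to −0.061 leaving out 1 array. In fits without 1 array the single remaining array of its group is assumed to vary like the others.

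The labels give all groups the replicate numbers 1 and 2. Deviations of same-numbered arrays correlated at −0.068 (NU7441 and knockdown), −0.005 (NU7441 and control) and −0.013 (knockdown and control) over all genes, so the arrays were taken to share a number only. With the replicate block 62 genes were called with NU7441 (57 lower, 5 higher), 0 after knockdown and 36 in knockdown against NU7441, and of the 267 values for the 89 genes in the 3 comparisons 5 lost and 2 gained a call. For all genes the lower and higher counts with NU7441 were 3312 and 1605, against 2037 and 2117 with quantile normalization and 1413 and 2983 with median centring. For knockdown they were 72 and 42, against 126 and 73 with quantile normalization and 78 and 345 with median centring, 3 and 0 with 16 taken off, 4 and 0 without the trend, 17 and 20 with the block, and 1822 and 1021 with the compared groups alone. For knockdown against NU7441 they were 421 and 863, and 187 and 285 with the compared groups alone. Where 0 of the 89 passed after knockdown in limma's test, 16 (16 taken off), 23 (no trend) and 20 (replicate block) were lower at an unadjusted p under 0.05, against 8.57%, 12.9% and 11.7% of all genes. The cause of these shifts was not tested.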
